A study of Mus musculus with 9 samples.

Results

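Osteoclasts are the multinucleate cells of the macrophage lineage that remove bone, and 34 genes of their formation and acid secretion were followed here in the mouse coronal suture, out of 43644 genes in the deposited table. The genes were chosen by symbol, from known roles, with earlier results of these libraries known. They comprise 5 genes of the RANKL axis and its M-CSF partner, 6 of co-stimulation and cell fusion, 4 transcription factors, 7 subunits of the proton pump, 5 of acid and ion transport, 4 of vesicle traffic and the cytoskeleton, and 3 of matrix degradation and calcitonin reception. All 34 were found in the deposited gene table, and all 34 passed the filter on low values, which 29107 genes passed.

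Osteoclast precursors form under M-CSF and RANKL. RANKL, made by osteoblast-lineage and other stromal cells, binds RANK on the precursor, while osteoprotegerin, secreted by the same stromal cells, binds RANKL and keeps it from RANK. Signals through TRAF6 and ITAM adaptors induce NFATc1, the main transcription factor of the osteoclast, and the fused cell then seals itself to bone, acidifies the space beneath it with a vacuolar proton pump and a coupled chloride transporter, and dissolves collagen with cathepsin K. Loss of the pump, the chloride transporter or its partner leads to osteopetrosis, in which bone is not removed.

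The coronal suture joins the frontal bones to the parietal bones of the skull, and loss of 1 copy of Twist1, a basic helix-loop-helix transcription factor, is a known cause of its early closure. Total RNA of the whole suture was sequenced in 9 libraries from C57BL/6 mice aged 7 months. The REG group had 3 libraries of Twist1+/- mice given suture regeneration surgery at the age of 1 month, the MUT group had 3 libraries of Twist1+/- mice without surgery, and the WT group had 3 libraries of wild-type mice without surgery. REG and MUT therefore carry the same genotype, and REG differs from WT in both genotype and surgery. MUT vs WT addresses the genotype, REG vs MUT the surgery at 1 genotype, and REG vs WT what remains after both. The labels do not say how the Twist1 allele was made or whether each library came from a separate animal, so the p-values reflect spread among libraries that may be technical replicates. Since whole tissue was measured, fewer cells of a type and less RNA per cell cannot be told apart.

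The libraries differed in depth and background along with their group. Estimated reads on genes came to between 18276494 and 39377876 in REG, between 2945636 and 10894209 in MUT and between 16356391 and 20019712 in WT. Background, estimated from 1747 olfactory and vomeronasal receptor genes, took between 7.05% and 22.3% of the reads in MUT, and between 0.483% and 0.816% in REG and WT. Mitochondrial transcripts made up between 2.01% and 4.78% of the reads in MUT and between 9.70% and 15.5% in REG and WT. Twist1 had values of 3.76, 9.19 and 12.2 in REG, 0.987, 8.08 and 0.548 in MUT and 16.2, 23.3 and 23.1 in WT, so that every Twist1+/- library was below every WT library. Library names give 2 further facts: the name of MUT replicate 2 does not contain its group, and the names of REG replicates 1 and 2 follow another pattern than that of REG replicate 3. What depth, background and mitochondrial share contribute to the differences involving MUT was not tested beyond the background subtraction given below.

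The 7 genes taken to define osteoclasts were Acp5, Ctsk, Calcr, Ocstamp, Dcstamp, Mmp9 and Itgb3. They had reads in every library, although Dcstamp, Ocstamp and Calcr were at or under background in MUT replicate 2, and Dcstamp and Calcr also in MUT replicate 3. Their summed value was 866 to 1649 in REG, 119 to 317 in MUT and 396 to 786 in WT, without overlap between any pair of groups in the deposited values. With libraries scaled to equal totals it was 712 to 1784 in REG, 264 to 390 in MUT and 314 to 546 in WT, so that MUT and WT overlapped. Of these 7 genes, 5 belong to the 34 followed here. In REG replicate 1, Ctsk, Acp5 and Mmp9 gave 531, 432 and 429 of a sum of 1459, so the sums mostly reflect these genes. By log2 change, 0 of the 7 were above 0 and 7 below in MUT vs WT. In REG vs MUT 6 were above 0 and 1, Calcr, below, and in REG vs WT 5 were above and 2 below. Values throughout are the deposited values, scaled by the authors so that the 75th percentile gene lies at 2.76 in every library. Per kb of exon, the mean level was highest for Ctsk and next for Acp5 in all 3 groups: Ctsk stood at 326 in REG, 47.9 in MUT and 124 in WT, and Acp5 at 207 in REG, 31.9 in MUT and 58.5 in WT.

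Promoters were searched for the motifs of the factors named here. In the RefSeq promoter table (GRCm38.p6), 24 of the 34 genes had an entry, with 37 promoters in all, each searched over 300 bases on both strands. GGAAA, the core bound by NFAT factors, was in 59.5% of these promoters against 61.3% of all 32851 promoters. CACGTG, the E-box bound by Mitf and its relatives, was in 8.11% of them against 7.15% of all, and TGANTCA, the AP-1 site, in 10.8% against 7.81%. The shares were thus close to those of all promoters. A match is a string of letters and not evidence of binding. The 3 genes with CACGTG were all genes of acid secretion (Atp6v1a, Atp6v0b and Clcn7), and their 250 bases before the start are printed below because the motif is rare, with that of Tnfsf11 as the ligand on which the balance turns. Capitals mark CACGTG, or GGAAA in Tnfsf11. The first capital lies 117 bases before the start in Tnfsf11, 131 in Atp6v1a, 36 and 18 in Atp6v0b and 15 in Clcn7. The stretches are chr14:78308044-78308293 (minus strand), chr16:44139260-44139509 (minus), chr4:117887330-117887579 (minus) and chr17:25133141-25133390 (plus).
Tnfsf11: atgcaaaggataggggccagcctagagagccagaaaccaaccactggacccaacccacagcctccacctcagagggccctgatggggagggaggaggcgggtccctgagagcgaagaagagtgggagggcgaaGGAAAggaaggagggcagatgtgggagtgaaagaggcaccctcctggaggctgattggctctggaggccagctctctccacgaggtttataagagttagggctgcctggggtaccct
Atp6v1a: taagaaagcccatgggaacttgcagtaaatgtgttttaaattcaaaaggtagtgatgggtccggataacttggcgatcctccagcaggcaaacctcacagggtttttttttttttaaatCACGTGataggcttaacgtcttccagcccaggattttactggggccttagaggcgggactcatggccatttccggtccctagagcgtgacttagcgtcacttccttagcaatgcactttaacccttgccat
Atp6v0b: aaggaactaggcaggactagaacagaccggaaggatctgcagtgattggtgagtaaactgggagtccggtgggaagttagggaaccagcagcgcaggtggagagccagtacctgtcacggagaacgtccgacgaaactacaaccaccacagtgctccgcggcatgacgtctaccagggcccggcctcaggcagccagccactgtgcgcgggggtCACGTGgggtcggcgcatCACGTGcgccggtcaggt
Clcn7: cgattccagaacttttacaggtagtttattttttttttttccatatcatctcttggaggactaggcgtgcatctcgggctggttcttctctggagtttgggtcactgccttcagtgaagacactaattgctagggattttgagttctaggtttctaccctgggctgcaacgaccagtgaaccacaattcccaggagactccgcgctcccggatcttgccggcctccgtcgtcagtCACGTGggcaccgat

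Most of the genes called were lower in unoperated Twist1+/- sutures than in wild-type sutures, a direction that rested on the scaling as given below, and higher after surgery than without it. In MUT vs WT, 12 of the 34 genes fell and 1 rose, where a gene is called at an adjusted p under 0.05 (limma over all 29107 genes, Benjamini-Hochberg), against 14.6% of all genes lower and 20.5% higher. The median log2 change of the 34 genes was -1.11, beside 0.18 over all genes, and it turned to 0.088 when libraries were scaled to equal totals, where the median of all genes was 1.16. Relative to all genes, the median was -1.29 as reported and -1.07 with total scaling, but -0.14 with a filter 10 times stricter, which kept 30 of the 34 genes among 11449 and where the median of all genes was -0.99. With that filter the REG vs MUT median was 1.72, beside 0.73 over all genes. In REG vs MUT, 21 genes rose and 1 fell, against 11.8% of all genes higher and 24.8% lower, and the median was 1.51, beside -0.36 over all genes. These 2 comparisons share the MUT libraries, so their changes are not independent of each other. In REG vs WT no gene was called among the 34 or among all 29107 genes, 0% in each direction. At an unadjusted p under 0.05, 5 of the 34 genes and 2755 of all genes differed in REG vs WT.

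MUT lay wholly below WT for 19 of the 34 genes and wholly above for 1, against 25.9% and 32.6% of all genes. With total scaling these counts were 5 below and 5 above, against 7.76% and 50.8% of all genes, and after background subtraction 5 and 5, against 13.7% and 24.3%. REG lay wholly above MUT for 20 genes and wholly below for 1, against 14.0% and 28.5% of all genes. With total scaling 11 were above and 3 below, against 5.01% and 38.2% of all genes, and after background subtraction 14 and 2, against 8.50% and 17.3%.

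The counts depended on the scaling and on single libraries. With total scaling, 2 genes fell and 2 rose in MUT vs WT (all genes 2.93% lower, 42.9% higher), and 9 rose and 1 fell in REG vs MUT (3.34% higher, 42.2% lower). After background subtraction, 0 fell and 1 rose in MUT vs WT (3.52% lower, 13.7% higher), and 2 rose and 1 fell in REG vs MUT (3.36% higher, 12.6% lower). In MUT vs WT the number of genes that fell came to 7 without WT replicate 2, without WT replicate 3 or without MUT replicate 3, and in REG vs MUT the number that rose came to 13 without MUT replicate 3. The calls of Nfatc1, Jdp2, Csf1, Tcirg1, Atp6v1a and Slc4a2 held in both comparisons whichever of the 9 libraries was left out.

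**Figure D1:**
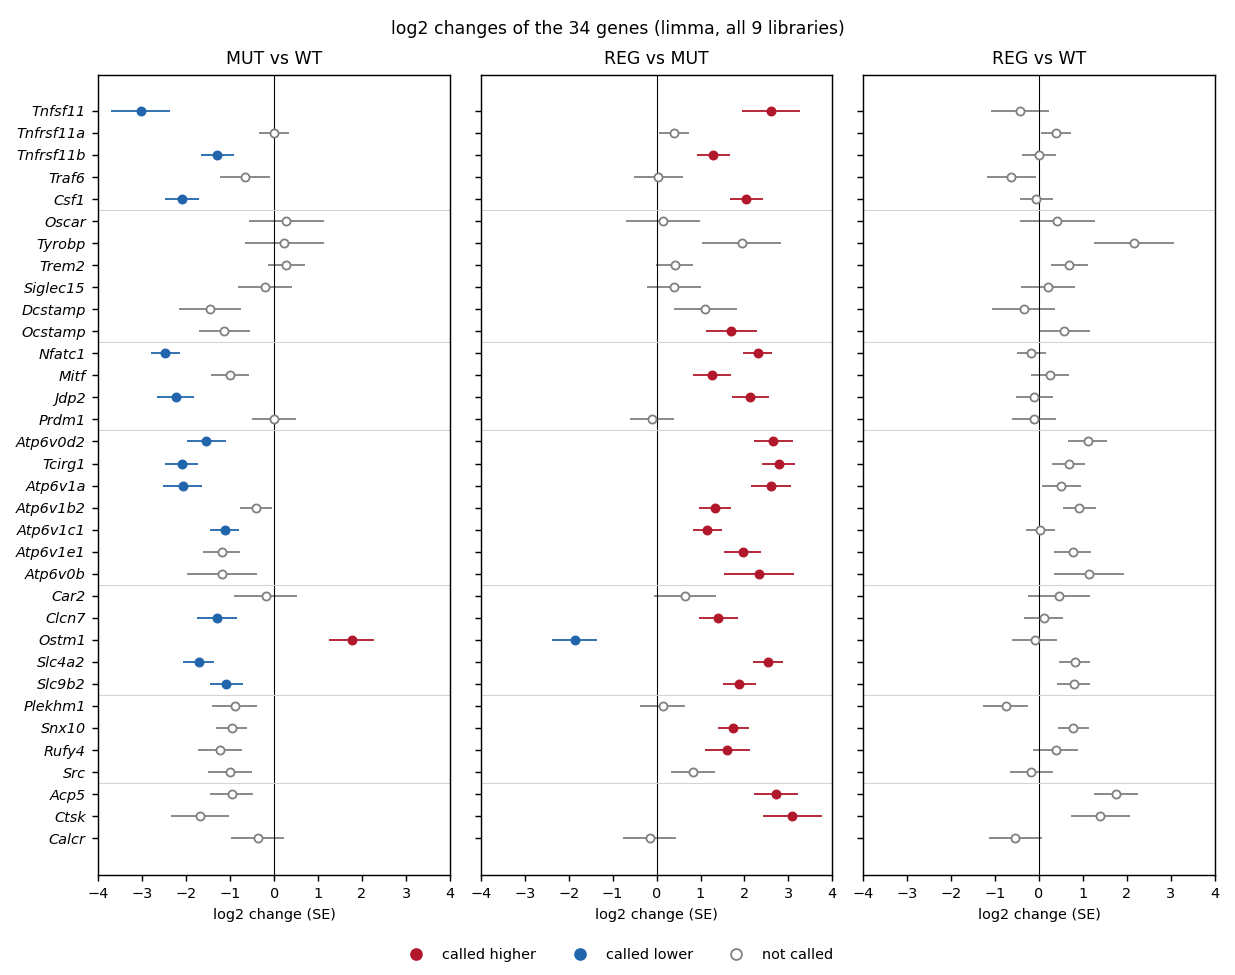
Log2 change with its standard error for each of the 34 genes (rows, grouped by role) in 3 panels, MUT vs WT on the left, then REG vs MUT, then REG vs WT, from 1 limma fit of 9 libraries. Filled points passed an adjusted p under 0.05: 12 genes lower and 1 higher in MUT vs WT (with total scaling 2 lower and 2 higher), 21 higher and 1 lower in REG vs MUT, and none in REG vs WT.

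Tnfsf11, which encodes RANKL, had the largest fall of the 34 genes by its log2 change in MUT vs WT. The gene lies at chr14:78277445-78308043 on the minus strand (GRCm38). Its values were 6.14, 11.95 and 4.37 in REG, 2.68, 0.324 and 0.435 in MUT and 4.39, 13.2 and 14.2 in WT. Every MUT library was below every REG and WT library, while REG and WT overlapped. Tnfsf11 fell by 3.04 ± 0.66 on the log2 scale in MUT vs WT (SE; adjusted p = 0.00839, limma) and rose by 2.604 ± 0.66 in REG vs MUT (adjusted p = 0.0141, limma). The rise was not called without MUT replicate 3 (adjusted p = 0.0546). The level in MUT was at the limit of detection: estimated reads were 2.25 in MUT replicate 2 and 19.7 in MUT replicate 3, under the background estimates of 4.13 and 29.5 reads for a gene of this length. After background subtraction the changes were -3.04 (adjusted p = 0.0591) and 2.95 (adjusted p = 0.0700). With total scaling they were -2.04 (adjusted p = 0.0559, limma) and 1.95 (adjusted p = 0.0659). Tnfsf11 was thus called in neither comparison under these 2 settings.

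Tnfrsf11b, which encodes osteoprotegerin, the soluble decoy for RANKL, fell and rose in the same comparisons as deposited. Like Tnfsf11, it was called in neither with total scaling or background subtraction. Its values were 6.95, 7.13 and 8.36 in REG, 3.48, 2.31 and 2.79 in MUT and 4.68, 11.3 and 7.75 in WT. Here too each MUT library was below all others. Tnfrsf11b fell by 1.29 ± 0.38 on the log2 scale in MUT vs WT (adjusted p = 0.0257, limma) and rose by 1.29 ± 0.38 in REG vs MUT (adjusted p = 0.0242, limma). The first call was lost without WT replicate 2 (adjusted p = 0.117), WT replicate 3 (0.0834), MUT replicate 2 (0.0562) or MUT replicate 3 (0.0648). The second was lost without MUT replicate 2 (0.0531), MUT replicate 3 (0.0616) or REG replicate 3 (0.0521). In MUT vs WT the change was -0.14 with total scaling (adjusted p = 0.807) and -0.30 after background subtraction (adjusted p = 0.737), and in REG vs MUT it was 0.48 (adjusted p = 0.382) and 0.65 (adjusted p = 0.445).

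The balance of ligand to decoy was taken within each library as the log2 ratio of Tnfsf11 to Tnfrsf11b, each with the pseudocount of 0.367 added, so that the scaling of the libraries hardly enters it. The balance was -0.17, 0.72 and -0.88 in REG, -0.34, -1.95 and -1.98 in MUT and -0.09, 0.22 and 0.85 in WT. All MUT values lay below all WT values, whereas REG replicate 3 lay below MUT replicate 1. Group means were -0.11 ± 0.80 in REG, -1.42 ± 0.94 in MUT and 0.33 ± 0.48 in WT (SD, n = 3 each). The difference was -1.75 in MUT vs WT (exact two-sided permutation p = 0.1, the smallest that 3 against 3 libraries allow), 1.31 in REG vs MUT (exact p = 0.2) and -0.44 in REG vs WT (exact p = 0.4). Over all 3 groups, an exact permutation test over every assignment of the 9 libraries gave p = 0.0607, which does not pass 0.05.

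The low balance in MUT rests on MUT replicates 2 and 3, in which Tnfsf11 did not exceed background. The MUT vs WT difference was -1.48 without MUT replicate 2 and -2.29 without MUT replicate 1. The value of a log ratio with so few reads depends on that pseudocount: a pseudocount 10 times higher gave -0.73, and background subtraction gave -2.74. Expressed without a pseudocount, 1 unit of Tnfrsf11b was matched by 0.884, 1.68 and 0.522 units of Tnfsf11 in REG, 0.769, 0.140 and 0.156 in MUT and 0.938, 1.17 and 1.84 in WT.

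**Figure D2:**
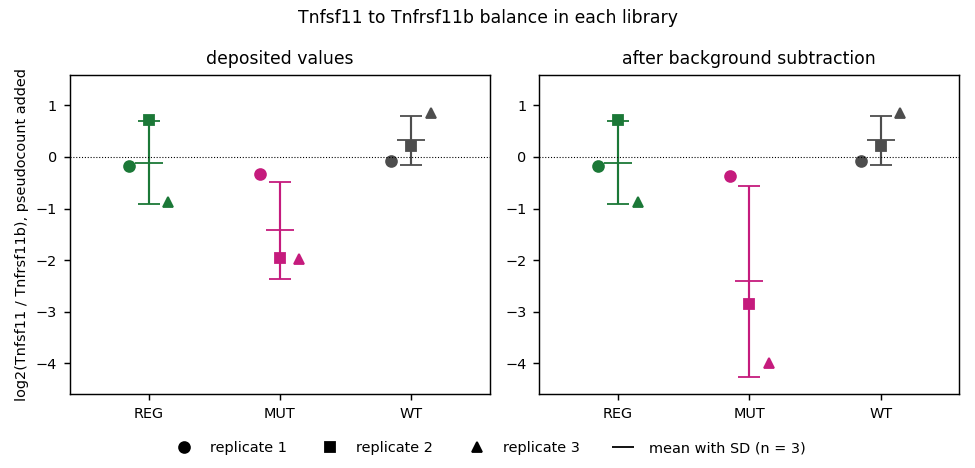
Log2 ratio of Tnfsf11 to Tnfrsf11b in each library of REG, MUT and WT, from the deposited values (left) and after background subtraction (right). Points are libraries, and bars give the mean and SD (n = 3). MUT replicates 2 and 3 sit at -1.95 and -1.98 on the left and lower still on the right, where their Tnfsf11 reads were fully removed.

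The receptor for RANKL and its adaptor were not called, whereas the growth factor M-CSF was. Tnfrsf11a, which encodes RANK, had values of 9.91, 9.97 and 9.92 in REG, 6.09, 9.94 and 6.81 in MUT and 5.52, 9.31 and 8.17 in WT. It was not called in any comparison, with a log2 change of -0.01 ± 0.34 in MUT vs WT that became 1.18 (adjusted p = 0.0136, limma) with total scaling. All 3 REG libraries were above all WT libraries for this gene. Traf6, the adaptor that binds RANK, had 6.77, 1.44 and 9.61 in REG, 5.09, 4.25 and 4.34 in MUT and 8.06, 7.73 and 6.58 in WT, and was not called. Csf1, which encodes M-CSF, the growth factor of osteoclast precursors, had 26.9, 30.5 and 23.1 in REG, 5.59, 9.67 and 4.36 in MUT and 21.02, 31.9 and 31.9 in WT. The MUT libraries stood apart from both other groups. Csf1 fell by 2.10 ± 0.38 on the log2 scale in MUT vs WT (adjusted p = 0.00406, limma) and rose by 2.04 ± 0.38 in REG vs MUT (adjusted p = 0.00444, limma).

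**Figure D3:**
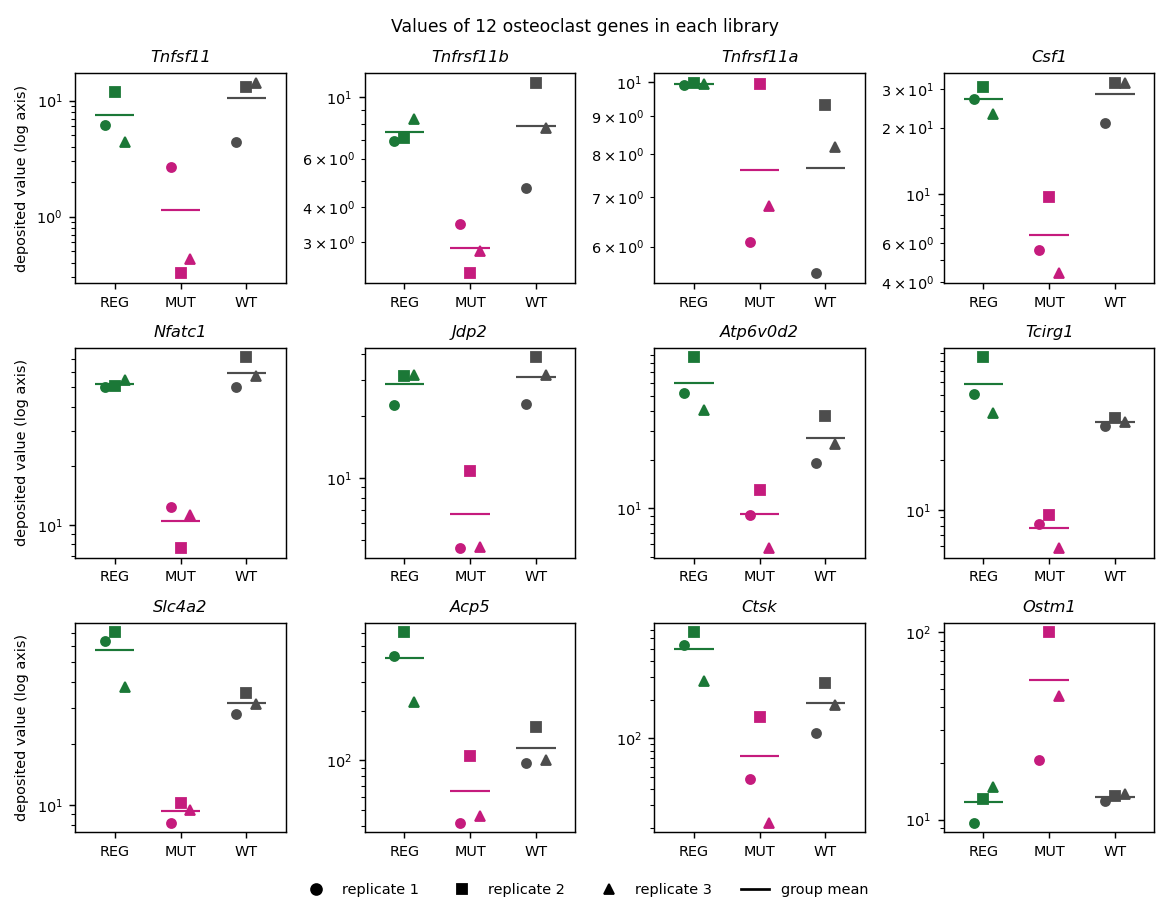
Deposited values of 12 of the genes in every library of REG, MUT and WT, on log axes whose range differs between panels. Symbols give the replicate number and lines the group mean. MUT lies below REG and WT for Tnfsf11, Tnfrsf11b, Csf1, Nfatc1, Jdp2, Atp6v0d2, Tcirg1 and Slc4a2, and above both for Ostm1, while Tnfrsf11a overlaps between MUT and WT.

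Genes of co-stimulation and fusion were variable and, apart from Tyrobp, low. Of the 6, none was called in MUT vs WT, against 14.6% of all genes lower and 20.5% higher. Only Ocstamp, a membrane protein needed for precursor fusion, was called in REG vs MUT, against 11.8% of all genes higher. With total scaling, quantile scaling or background subtraction 0 of the 6 rose in REG vs MUT. Ocstamp had 6.80, 8.95 and 4.41 in REG, 3.29, 0.414 and 2.87 in MUT and 3.51, 5.90 and 3.64 in WT, a log2 change of 1.70 ± 0.58 in REG vs MUT (adjusted p = 0.0434, limma). That call held in 2 of the 9 fits that left out a library. It was lost without any of the WT libraries (adjusted p 0.0610 to 0.0660), MUT replicate 2 (0.0866), MUT replicate 3 (0.0511), REG replicate 1 (0.0855) or REG replicate 2 (0.0875). Dcstamp, its partner in fusion, had 6.17, 0.414 and 2.44 in REG, 1.53, 0.311 and 0.739 in MUT and 1.66, 3.75 and 3.18 in WT. Tyrobp, the ITAM adaptor DAP12, had 69.6, 30.9 and 12.04 in REG, 5.76, 31.5 and 2.13 in MUT and 9.70, 7.40 and 3.49 in WT. MUT replicate 2 was as high as REG replicate 2 for this gene, and the REG vs MUT change was called only without MUT replicate 2, at 2.94 (adjusted p = 0.0191). Oscar, a collagen receptor paired with another ITAM adaptor, ranged from 0.408 to 9.77 in REG, from 1.57 to 4.75 in MUT, and 0.957 to 3.83 in WT. Trem2, a DAP12-coupled receptor, ranged from 1.46 to 2.99 in REG, from 0.699 to 2.21 in MUT, and 0.898 to 1.29 in WT. Siglec15, a sialic acid receptor that also uses DAP12, ranged from 1.11 to 3.43 in REG, from 0.402 to 4.19 in MUT, and 1.52 to 2.29 in WT.

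Reads of several low genes in MUT did not rise above background. In MUT replicate 2, Tnfsf11, Trem2, Dcstamp, Ocstamp and Calcr were at or under the background estimate, 5 of 34 genes, and in MUT replicate 3 Tnfsf11, Dcstamp and Calcr were, 3 of 34. No other library had such a gene. The median gene had 197, 132 and 186 times its background estimate in REG, 3.74, 7.12 and 3.997 times in MUT and 68.2, 145 and 86.8 times in WT. For genes near background in MUT a difference to another group states little more than that they were not detectable there at this depth.

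**Figure D4:**
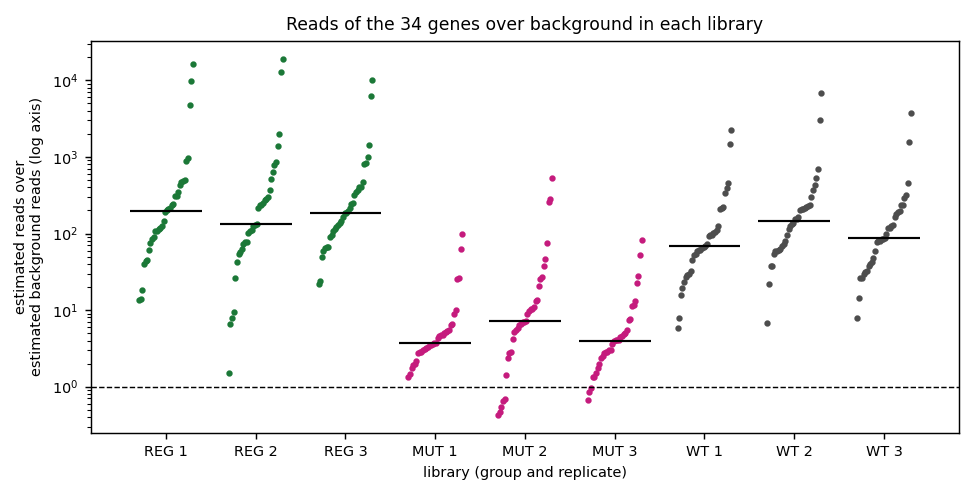
Estimated reads of the 34 genes over the estimated background reads for their length, in each library, on a log axis. Black lines are medians and the dashed line marks reads equal to background. The MUT medians lie between 3.74 and 7.12 and those of the other libraries between 68.2 and 197, and genes fall below the dashed line only in MUT replicates 2 and 3.

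Of the 4 osteoclast transcription factors, Nfatc1 and Jdp2 fell in MUT vs WT, and they rose in REG vs MUT together with Mitf. Nfatc1, the master factor of osteoclast formation, had 50.3, 50.9 and 54.7 in REG, 12.4, 7.64 and 11.2 in MUT and 50.1, 71.0 and 57.0 in WT. Every MUT library was below the others, and REG and WT overlapped. Nfatc1 fell by 2.48 ± 0.33 on the log2 scale in MUT vs WT (adjusted p = 0.00142, limma) and rose by 2.30 ± 0.33 in REG vs MUT (adjusted p = 0.00188, limma). Jdp2, an AP-1 family factor required for osteoclast formation in mice, had 22.6, 31.3 and 31.4 in REG, 4.55, 10.8 and 4.61 in MUT and 22.9, 38.4 and 31.6 in WT, and changed by -2.24 ± 0.41 (adjusted p = 0.00439) in MUT vs WT and by 2.14 ± 0.41 (adjusted p = 0.00504) in REG vs MUT. With total scaling these were the 2 members that still fell in MUT, by 1.26 for Nfatc1 (adjusted p = 0.0331) and 1.05 for Jdp2 (adjusted p = 0.0283). Neither was called after background subtraction (Nfatc1 -1.30, adjusted p = 0.125; Jdp2 -0.96, adjusted p = 0.173).

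Mitf, which acts with its relatives on lysosomal and osteoclast genes, had 12.01, 11.04 and 6.75 in REG, 3.96, 6.01 and 2.31 in MUT and 5.43, 9.91 and 9.53 in WT. It rose by 1.26 ± 0.43 in REG vs MUT (adjusted p = 0.0453, limma), a call that held in 2 of the 9 fits that left out a library and was lost without any WT library (adjusted p 0.0533 to 0.0693), MUT replicate 1 (0.0980), MUT replicate 3 (0.154), REG replicate 1 (0.111) or REG replicate 2 (0.0779). Prdm1, encoding the repressor Blimp1 that silences inhibitors of osteoclast formation, ranged from 1.68 to 6.97 in REG, from 3.92 to 6.69 in MUT, and 4.15 to 5.40 in WT and was not called.

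All 7 proton pump genes rose in REG vs MUT, and 4 of them (Atp6v0d2, Tcirg1, Atp6v1a and Atp6v1c1) fell in MUT vs WT, against 11.8% of all genes higher in REG vs MUT and 14.6% lower in MUT vs WT. With total scaling 3 rose in REG vs MUT, with quantile scaling 2 and after background subtraction 1, and under none of these did a pump gene fall in MUT vs WT. Tcirg1, the a3 subunit that places the pump at the resorbing membrane, lies at chr19:3896050-3907133 on the minus strand. It had 50.1, 84.0 and 38.9 in REG, 8.19, 9.33 and 5.86 in MUT and 32.1, 35.9 and 34.2 in WT, so that the 3 groups did not overlap and REG was the highest. Tcirg1 fell by 2.10 ± 0.37 on the log2 scale in MUT vs WT (adjusted p = 0.00381, limma) and rose by 2.78 ± 0.37 in REG vs MUT (adjusted p = 0.00158, limma). The rise was called in all 9 fits that left out a library and under all 12 other settings, as it was for Slc4a2 and for no other of the 34 genes.

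Atp6v0d2, the d2 subunit characteristic of osteoclasts and also linked to cell fusion, had 51.6, 86.4 and 40.8 in REG, 9.01, 12.9 and 5.65 in MUT and 19.1, 37.3 and 25.0 in WT. Again no pair of groups overlapped. It changed by 2.65 ± 0.44 in REG vs MUT (adjusted p = 0.00302, limma) and by -1.55 ± 0.44 in MUT vs WT (adjusted p = 0.0239, limma). The fall was not called without WT replicate 2 (adjusted p = 0.104), WT replicate 3 (0.0692), MUT replicate 1 (0.0600) or MUT replicate 3 (0.0845). Atp6v1a, the catalytic A subunit, had 40.1, 29.7 and 38.4 in REG, 9.53, 2.72 and 6.57 in MUT and 19.7, 32.3 and 24.5 in WT. It fell by 2.09 ± 0.45 in MUT vs WT (adjusted p = 0.00816) and rose by 2.598 ± 0.45 in REG vs MUT (adjusted p = 0.00348, limma).

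The other 4 pump genes had called rises in REG vs MUT of 1.15 to 2.34. Atp6v1b2, the B2 subunit of the catalytic head, had 48.9, 34.8 and 39.2 in REG, 11.5, 20.6 and 17.1 in MUT and 16.4, 29.5 and 20.04 in WT. Its rise in REG vs MUT was 1.33 ± 0.37 (adjusted p = 0.0205, limma), which was lost without MUT replicate 1 (0.0735) or REG replicate 1 (0.0540). Atp6v1c1, the C1 subunit that joins head and membrane sector, had 17.5, 16.4 and 18.9 in REG, 6.07, 10.7 and 6.95 in MUT and 17.2, 19.7 and 15.1 in WT, so that REG and WT overlapped. It fell by 1.13 ± 0.33 in MUT vs WT (adjusted p = 0.0265, limma), a direction that turned with total scaling (0.077) and was close to 0 after background subtraction (0.0048). It was lost without any WT library (adjusted p 0.0651 to 0.106), MUT replicate 1 (0.0847) or MUT replicate 3 (0.0735). Its rise in REG vs MUT was 1.15 ± 0.33 (adjusted p = 0.0229), not called without MUT replicate 1 (0.0765) or MUT replicate 3 (0.0651).

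Atp6v1e1, the E1 stalk subunit, had 19.0, 49.2 and 23.9 in REG, 7.52, 7.98 and 5.64 in MUT and 12.3, 21.5 and 16.8 in WT. It rose by 1.96 ± 0.42 in REG vs MUT (adjusted p = 0.00742, limma), while its change of -1.20 ± 0.42 in MUT vs WT had an adjusted p of 0.0506. Atp6v0b, a subunit of the membrane ring, had 21.1, 40.2 and 13.8 in REG, 3.53, 17.4 and 1.02 in MUT and 7.24, 11.9 and 11.8 in WT, and was the only pump gene whose REG and MUT values overlapped. Its rise of 2.34 ± 0.80 (adjusted p = 0.0436, limma) held in 2 of the 9 fits that left out a library, and was lost without any WT library (adjusted p 0.0622 to 0.0651), MUT replicate 1 (0.120), MUT replicate 3 (0.149), REG replicate 1 (0.0763) or REG replicate 2 (0.0959). Some of these genes overlap another gene on the opposite strand, Atp6v1b2 with Slc18a1 and Atp6v1e1 with Slc25a18, and whether counting used strand is not given in the sources used here.

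Of the 5 genes of acid and ion transport, 3 fell and 1 rose in MUT vs WT, and 3 rose and 1 fell in REG vs MUT, beside the shares of all genes given above. With total scaling, quantile scaling or background subtraction 0 fell and 1 rose in MUT vs WT, and 1 rose and 1 fell in REG vs MUT. Slc4a2, the chloride and bicarbonate exchanger AE2 that keeps osteoclast pH in balance, had 63.5, 70.2 and 37.7 in REG, 8.17, 10.3 and 9.43 in MUT and 27.8, 35.4 and 31.2 in WT. The 3 groups did not overlap. Slc4a2 fell by 1.72 ± 0.35 on the log2 scale in MUT vs WT (adjusted p = 0.00615, limma) and rose by 2.53 ± 0.35 in REG vs MUT (adjusted p = 0.00165, limma). After background subtraction the rise was 1.82 (adjusted p = 0.0329), and Tcirg1 rose by 1.93 (adjusted p = 0.0276), the 2 genes called higher there. Slc4a2 overlaps Fastk on the opposite strand, whose mean was 14.1 in REG, 3.86 in MUT and 9.28 in WT, and the share of its reads that could fall on Slc4a2 was not tested.

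Slc9b2, a sodium and proton exchanger that rises as osteoclasts form, had 25.2, 30.2 and 14.5 in REG, 6.28, 7.11 and 4.31 in MUT and 11.3, 13.6 and 13.5 in WT. It rose by 1.88 ± 0.38 in REG vs MUT (adjusted p = 0.00559, limma). Its fall of 1.09 ± 0.38 in MUT vs WT (adjusted p = 0.0460) turned to 0.10 with total scaling and was lost without any WT library (adjusted p 0.0841 to 0.138), MUT replicate 1 (0.0861), MUT replicate 3 (0.140) or REG replicate 1 (0.0514). Clcn7, the chloride and proton antiporter ClC-7, had 21.9, 7.71 and 19.0 in REG, 6.53, 5.79 and 4.05 in MUT and 10.07, 17.2 and 14.8 in WT. Clcn7 fell by 1.30 ± 0.45 in MUT vs WT (adjusted p = 0.0468, limma) and rose by 1.41 ± 0.45 in REG vs MUT (adjusted p = 0.0337), calls that held in 3 and in 2 of the 9 fits that left out a library. In those fits the adjusted p reached 0.159 without WT replicate 2 in MUT vs WT and 0.109 without MUT replicate 3 in REG vs MUT. Car2, carbonic anhydrase II, which supplies the protons, had 51.3, 7.52 and 63.7 in REG, 20.5, 17.1 and 18.4 in MUT and 30.4, 13.2 and 24.3 in WT. REG replicate 2 stood far below the other REG libraries, and without it the REG vs MUT change of Car2 was 1.599 (adjusted p = 0.0153, limma), against 0.64 (adjusted p = 0.510) with it.

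Ostm1, the partner protein without which ClC-7 is not stable, was the sole gene of the 34 to rise in MUT vs WT. The gene lies at chr10:42583822-42702459 on the plus strand. Ostm1 had 9.62, 12.9 and 14.97 in REG, 20.9, 99.999 and 45.5 in MUT and 12.5, 13.4 and 13.7 in WT. All MUT values were above all others, and they spread about their mean of 55.5 with an SD of 40.5, against a mean of 12.5 ± 2.69 in REG and 13.2 ± 0.617 in WT (SD, n = 3). Ostm1 rose by 1.76 ± 0.51 in MUT vs WT (adjusted p = 0.0250, limma) and fell by 1.86 ± 0.51 in REG vs MUT (adjusted p = 0.0190, limma). The rise was larger with total scaling (2.99, adjusted p = 0.000932) and after background subtraction (3.19, adjusted p = 0.00224). It was lost without WT replicate 1 (adjusted p = 0.0706), WT replicate 2 (0.0771), WT replicate 3 (0.0713), MUT replicate 2 (0.0512) or MUT replicate 3 (0.0653), and the fall without MUT replicate 3 (0.0526) or REG replicate 1 (0.0514).

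Of the 4 genes of vesicle traffic and the cytoskeleton, none was called in MUT vs WT, against 14.6% of all genes lower and 20.5% higher. In REG vs MUT 2 rose, against 11.8% of all genes higher. With total scaling, quantile scaling or background subtraction 0 of the 4 rose in REG vs MUT. Snx10, a sorting nexin whose loss in humans causes osteopetrosis, had 23.8, 21.6 and 21.5 in REG, 8.71, 4.86 and 6.15 in MUT and 13.4, 16.4 and 9.57 in WT. No pair of groups overlapped, and Snx10 rose by 1.74 ± 0.35 in REG vs MUT (adjusted p = 0.00589, limma). Rufy4, a protein linked to autophagy and lysosomes, had 5.49, 14.6 and 5.85 in REG, 3.65, 3.09 and 1.00 in MUT and 5.05, 6.96 and 5.88 in WT, with a rise of 1.61 ± 0.51 in REG vs MUT (adjusted p = 0.0324) that was lost without any WT library (adjusted p 0.0502 to 0.0537), MUT replicate 3 (0.113) or REG replicate 2 (0.0744). Plekhm1, an adaptor for lysosome fusion at the ruffled border, had 5.87, 5.90 and 23.1 in REG, 8.91, 8.11 and 8.36 in MUT and 13.1, 20.8 and 15.1 in WT. Src, the kinase that shapes the ruffled border, had 19.2, 5.83 and 14.8 in REG, 5.11, 10.7 and 4.95 in MUT and 10.21, 17.4 and 13.6 in WT. Neither Plekhm1 nor Src was called, and REG replicate 2 was the lowest REG library for Src and, with replicate 1, far below replicate 3 for Plekhm1.

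The 2 genes of highest level per kb, Ctsk and Acp5, rose in REG vs MUT, and with Tcirg1 they had the largest increases of the 34 genes on the log2 scale. Ctsk, the collagen-cleaving protease cathepsin K, lies at chr3:95499256-95509362 and had 531, 671 and 277 in REG, 48.6, 147 and 22.0 in MUT and 109, 269 and 183 in WT. Every REG library was above every WT library, while MUT replicate 2 lay within the WT range. Ctsk rose by 3.09 ± 0.67 in REG vs MUT (adjusted p = 0.00747, limma), and its change of -1.69 ± 0.67 in MUT vs WT had an adjusted p of 0.0735. Acp5, tartrate-resistant acid phosphatase, the classic stain for osteoclasts, lies at chr9:22126727-22135711 and had 432, 603 and 227 in REG, 41.7, 107 and 46.0 in MUT and 95.8, 160 and 101 in WT. It rose by 2.72 ± 0.50 in REG vs MUT (adjusted p = 0.00412, limma), while the change in MUT vs WT was -0.97 ± 0.50 (adjusted p = 0.154). Calcr, the calcitonin receptor of mature osteoclasts, was low everywhere, from 0.148 to 1.73 in REG, from 0.599 to 1.91 in MUT, and 0.762 to 2.22 in WT. Of these 3 genes, 2 rose in REG vs MUT with total scaling or quantile scaling. After background subtraction 0 of the 3 rose, against 3.36% of all genes higher.

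No gene was called in REG vs WT, and the values were higher in REG more often than lower. In 12 of the 34 genes every REG library was above every WT library, and in 0 every REG library was below, against 4.03% of all genes higher and 12.1% lower. The 12 were Tnfrsf11a, Tyrobp, Trem2, Atp6v0d2, Tcirg1, Atp6v1b2, Atp6v0b, Slc4a2, Slc9b2, Snx10, Acp5 and Ctsk, that is 4 of the 7 pump genes but none of the transcription factors and neither Tnfsf11, Tnfrsf11b nor Csf1. With total scaling the count was 15 higher and 0 lower, against 8.02% and 7.33% of all genes. The median log2 change of the 34 genes in REG vs WT was 0.38, beside -0.18 over all genes. Acp5 had the smallest p, with a log2 change of 1.75 ± 0.50 (adjusted p = 0.498, limma). Other changes that did not pass were 2.16 ± 0.91 for Tyrobp, 1.40 ± 0.67 for Ctsk, 1.15 ± 0.80 for Atp6v0b and 1.11 ± 0.44 for Atp6v0d2.

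The size of these REG vs WT differences depended on the REG library. REG replicate 3 was the lowest REG library for Acp5, Ctsk, Tcirg1, Atp6v0d2 and Slc4a2. Without REG replicate 3, Acp5 was called at 2.14 (adjusted p = 0.0408, limma), the lowest over its alternatives, and 6886 of all genes were at an unadjusted p under 0.05. With REG replicate 3 alone, Acp5 was at 0.97, Ctsk at 0.66, Atp6v0d2 at 0.64 and Slc4a2 at 0.27, with adjusted p-values of 1.00. Markers of other cells differed between the groups as well. The summed value of 12 monocyte and macrophage markers was 469 to 781 in REG, 106 to 204 in MUT and 167 to 291 in WT, and that of 9 neutrophil markers was 1360 to 3726 in REG, 377 to 1270 in MUT and 208 to 1052 in WT. With total scaling the monocyte and macrophage sum was 386 to 845 in REG, 219 to 280 in MUT and 128 to 231 in WT. The neutrophil sum was then 1119 to 4032 in REG, 834 to 1564 in MUT and 159 to 835 in WT. For the monocyte and macrophage sum the direction between MUT and WT thus rested on the scaling. For the neutrophil sum both ends of the MUT range were above those of WT in either scaling, with overlap. REG was above WT in both sums in every library, and the part of these cells in the changes of genes that they also express, such as Tyrobp and Trem2, was not tested.

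Markers of the cells that make the ligands differed between the groups too. The sum of 13 osteoblast and osteocyte markers was 12149 to 33608 in REG, 1354 to 14429 in MUT and 25155 to 44699 in WT. The sum of 10 markers of suture mesenchyme and fibroblasts was 3982 to 4544 in REG, 69.9 to 265 in MUT and 4898 to 9944 in WT. MUT was below WT in both sums without overlap, as it was for Tnfsf11, Tnfrsf11b and Csf1 in the deposited values. With total scaling MUT stayed below WT without overlap in both sums. Against this, the sum of 10 B cell markers was 107 to 130 in REG, 341 to 1818 in MUT and 56.0 to 145 in WT, that of 9 T cell markers 11.2 to 13.5 in REG, 19.6 to 22.8 in MUT and 7.73 to 11.1 in WT, and that of 7 keratinocyte markers 3.54 to 7.43 in REG, 48.3 to 247 in MUT and 6.87 to 11.1 in WT. Of these, 3 T cell markers (Cd3d, Trbc1 and Trbc2) and 2 keratinocyte markers (Krt14 and Ivl) were under 1 estimated read in at least 1 library. The sum of 7 erythroid markers was 774 to 1712 in REG, 551 to 1025 in MUT and 294 to 784 in WT. With total scaling it was 837 to 1712 in REG, 1219 to 1262 in MUT and 204 to 623 in WT. What the cells behind these sums contribute to the changes of the osteoclast genes was not tested.

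Downstream of the receptors, 23 further genes of RANKL and co-stimulatory signalling were read. In MUT vs WT 10 of them fell and 0 rose, and in REG vs MUT 10 rose and 0 fell, against 14.6% of all genes lower in MUT vs WT and 11.8% higher in REG vs MUT. The median log2 changes were -1.003 and 1.25, beside 0.18 and -0.36 over all genes. With total scaling 2 fell and 2 rose in MUT vs WT, and 1 rose and 2 fell in REG vs MUT, where the medians were 0.18 and 0.40, beside 1.16 and -1.11 over all genes. Jun, an AP-1 factor that works with NFATc1, had 18.1, 16.4 and 36.1 in REG, 1.90, 2.10 and 3.07 in MUT and 30.9, 78.5 and 48.7 in WT. It fell by 4.21 ± 0.45 in MUT vs WT (adjusted p = 0.000864, limma) and rose by 3.07 ± 0.45 in REG vs MUT (adjusted p = 0.00205, limma). Camk4, the calcium-dependent kinase upstream of NFATc1, fell by 2.95 ± 0.40 in MUT vs WT (adjusted p = 0.00155), and Ppp3ca, a calcineurin catalytic subunit that activates NFAT factors, rose by 1.83 ± 0.30 in REG vs MUT (adjusted p = 0.00288).

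Among 11 genes of M-CSF reception and precursor transcription factors, 3 fell in MUT vs WT and 4 rose in REG vs MUT, against 14.6% of all genes lower and 11.8% higher. With total scaling 1 fell and 1 rose in MUT vs WT and 1 rose in REG vs MUT. The medians were -0.99 and 0.97, beside 0.18 and -0.36 over all genes. Csf1r, the receptor for M-CSF, had 96.8, 44.2 and 67.7 in REG, 11.95, 7.17 and 16.996 in MUT and 35.04, 49.9 and 38.2 in WT, and changed by -1.80 ± 0.43 (adjusted p = 0.0116, limma) in MUT vs WT and by 2.51 ± 0.43 (adjusted p = 0.00324) in REG vs MUT. In the deposited values Csf1 and its receptor were thus both lowest in MUT. The fall of Csf1r was -0.58 with total scaling (adjusted p = 0.389, limma) and -0.53 after background subtraction (adjusted p = 0.603). Its rise in REG vs MUT was 1.64 (adjusted p = 0.0286) and 1.59 (adjusted p = 0.117) in these settings.

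Of 17 other genes of resorption and attachment to bone, 13 fell and 0 rose in MUT vs WT, with a median log2 change of -1.99, and 15 rose and 0 fell in REG vs MUT, with a median of 1.82. Of all genes 14.6% were lower in MUT vs WT and 11.8% higher in REG vs MUT, with medians of 0.18 and -0.36. With total scaling 4 fell in MUT vs WT and 8 rose in REG vs MUT, and after background subtraction 1 fell and 4 rose. Mmp9, the gelatinase of osteoclasts, had 429, 327 and 270 in REG, 52.4, 37.9 and 34.5 in MUT and 149, 300 and 178 in WT, a rise of 3.02 ± 0.38 in REG vs MUT (adjusted p = 0.00133, limma) that was called after background subtraction too (1.92, adjusted p = 0.0359). Ctsb, the lysosomal protease cathepsin B, rose by 2.74 ± 0.36 in REG vs MUT (adjusted p = 0.00152). Gsn, gelsolin, an actin-severing protein of the podosome, had 121, 58.0 and 151 in REG, 14.4, 27.4 and 8.78 in MUT and 137, 199 and 157 in WT, and fell by 3.39 ± 0.50 in MUT vs WT (adjusted p = 0.00193, limma). Lamp2, a lysosomal membrane protein, fell by 2.46 ± 0.37 in MUT vs WT (adjusted p = 0.00211). Many of these genes are also expressed by stromal and myeloid cells.

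Other V-ATPase genes were called in both directions. Of 18 genes 17 were tested, and in MUT vs WT 4 rose and 5 fell, while in REG vs MUT 7 rose and 4 fell, against 20.5% and 14.6% of all genes in MUT vs WT and 11.8% and 24.8% in REG vs MUT. With total scaling, where all 18 were tested, 5 rose and 0 fell in MUT vs WT, and 3 rose and 6 fell in REG vs MUT. After background subtraction, where 16 were tested, 1 rose and 0 fell in MUT vs WT, and 1 rose and 2 fell in REG vs MUT. As deposited, the 4 that rose in MUT vs WT (Atp6v1c2, Atp6v0a4, Atp6v1b1 and Atp6v1g3) were the 4 that fell in REG vs MUT. They are isoforms known from kidney and other specialised epithelia. After background subtraction Atp6v1c2 stayed called in both comparisons (limma, adjusted p = 0.00599 and 0.00504). Atp6v0a4 was not called there in MUT vs WT (adjusted p = 0.0596), nor Atp6v1b1 in REG vs MUT (0.0845). Atp6v1c2 had 0.103, 0.211 and 0.0731 in REG, 1.42, 3.00 and 4.90 in MUT and 0.367, 0.214 and 0.193 in WT. It rose by 2.35 ± 0.42 in MUT vs WT (adjusted p = 0.00381, limma) and fell by 2.68 ± 0.42 in REG vs MUT (adjusted p = 0.00246). Atp6v1g1, the widespread G1 stalk subunit, had 12.5, 22.7 and 14.1 in REG, 4.54, 2.28 and 1.26 in MUT and 8.59, 9.90 and 7.36 in WT, and rose by 2.56 ± 0.45 in REG vs MUT (adjusted p = 0.00351, limma). Atp6v0d1, the widespread counterpart of Atp6v0d2, had 23.5, 14.4 and 11.9 in REG, 3.43, 3.59 and 3.75 in MUT and 5.68, 8.93 and 8.93 in WT, and rose by 2.04 ± 0.37 (adjusted p = 0.00379). Both d subunits of the pump were thus higher in REG.

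Genes that couple bone removal to bone formation, or that restrain it, were called in both directions. Of 16 such genes 14 were tested, of which 1 rose and 4 fell in MUT vs WT, and 3 rose and 1 fell in REG vs MUT, beside the same shares of all genes. With total scaling, which tested 15 of them, 5 rose and 0 fell in MUT vs WT, and 1 rose and 4 fell in REG vs MUT. Cthrc1, a secreted protein of osteoclasts and stromal cells, had 16.6, 37.9 and 14.1 in REG, 1.72, 4.55 and 1.66 in MUT and 9.38, 14.1 and 19.8 in WT, with a rise of 2.94 ± 0.51 in REG vs MUT (adjusted p = 0.00352, limma) that remained called after background subtraction (2.26, adjusted p = 0.0241). Wnt5a, an osteoblast-lineage ligand that raises RANK in precursors through Ror2, had 7.49, 2.45 and 4.34 in REG, 18.2, 31.8 and 18.1 in MUT and 6.63, 7.00 and 6.51 in WT, a rise of 1.65 ± 0.43 in MUT vs WT (adjusted p = 0.0163, limma). Its receptor Ror2 had 6.01, 5.16 and 5.47 in REG, 1.70, 0.399 and 1.89 in MUT and 7.29, 10.7 and 9.53 in WT, a fall of 2.62 ± 0.44 (adjusted p = 0.00301). Ligand and receptor were called in opposite directions. In none of the 5 lists was a gene called in REG vs WT.

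**Figure D5:**
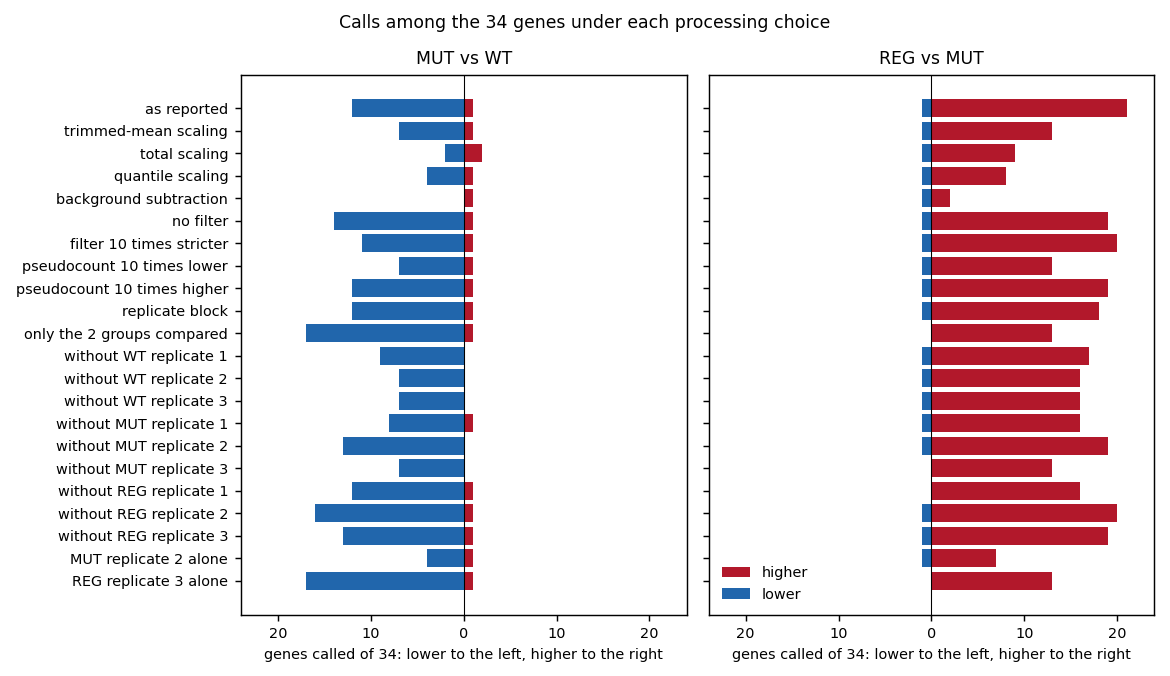
Number of the 34 genes called higher (right, red) or lower (left, blue) under each processing choice, for MUT vs WT (left panel) and for REG vs MUT (right panel), each bar from 1 limma fit. Genes that fell in MUT vs WT number 12 as reported and 0 after background subtraction, and genes that rose in REG vs MUT number 21 as reported and 2 after it.

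The authors' deposited table gave a similar selection from their own test. At an FDR under 0.05 in the authors' deposited table, 8 of the 34 genes were lower and 1 was higher in MUT vs WT, and all 9 were among the 13 called here. In REG vs MUT, the authors' deposited table had 20 genes higher and 1 lower, all 21 among the 22 called here. In REG vs WT it had 0, with a lowest FDR of 0.456 over the 34 genes. The share of all genes at an FDR under 0.05 in the authors' test is not given here. These counts therefore show overlap with the calls made here, and not whether the 34 genes were called more often than other genes.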

How the data were processed

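Coronal suture RNA of 9 libraries (REG, MUT and WT, 3 each) was read single-end over 75 cycles from samples with RNA integrity above 9, per the labels. Reads were processed with STAR 2.6.1d and Partek on mm10, per the submitters' processing notes, and the sources used here do not give the counting or annotation. What the matrix contains is the authors' deposited, normalized signal per gene, scaled to an equal upper quartile as its values show, and not whole reads. The deposited gene table holds the authors' log2 ratios, p-values with FDR, group mean signals and further values, and its order fixed the gene of each matrix column (4 statistics matched for 43644 genes, relative tolerance 1e-06). Estimated reads are the value over a library's lowest value, minus 1, and are no exact counts. They were fewest in MUT, at 10894209, 2945636 and 7860273.

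limma 3.58.1 (R 4.3.3) was fitted to log2(value + 0.367), a pseudocount of 1 part in 1000000 of the median library total, with 1 mean per group over all 9 libraries. Genes at 0.367 or more in 3 libraries were tested. The limma p-values are two-sided and, unless called unadjusted, Benjamini-Hochberg adjusted over the genes tested, 29107 as reported. Other settings could test another number, such as 32045 with total scaling and 24077 after background subtraction. The permutation p-values of the balance were not adjusted. The pseudocount makes log2 changes understate those of low genes. In simulated data with 200 changed genes among 29107, 0% were recovered at 4-fold and 60% to 63% at 8-fold in the 3 comparisons. In the data far more genes were called, 5964 higher and 4261 lower in MUT vs WT, so the adjustment was less strict there. The simulated shares therefore do not give the size of change that could be called in these data. GENCODE M21 gave exon lengths for 42972 genes. The 34 genes, the 5 further lists (85 genes) and the tests were chosen with earlier results of these data known. From each further list at most 2 genes per direction and comparison, those of smallest p, are named, except for a result that is not reported here. Alternatives were 3 other scalings, background subtraction, filters, pseudocounts, a replicate block, only the groups compared, and libraries left out. The series text mentions 1 week after induction and the protocol pairs of samples, which the labels do not explain. Tables were made with pandas 2.3.3 under Python 3.11.15 with numpy 2.4.6, and figures with matplotlib 3.10.9.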

Additional observations from a re-analysis of the deposited data

How the results depend on the processing

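The median log2 change of the 34 genes in REG vs MUT was above 0 under every setting tried, while the number of genes called and the median in MUT vs WT varied. Genes lower in MUT vs WT numbered 12 as reported, 7 with trimmed-mean scaling, 2 with total scaling, 4 with quantile scaling, 0 after background subtraction, 7 with a pseudocount 10 times lower, and 4 with MUT replicate 2 alone, and from 7 to 16 without single libraries; genes higher numbered 2 with total scaling and from 0 to 1 without single libraries. Genes higher in REG vs MUT numbered 21 as reported, 13 with trimmed-mean scaling, 9 with total scaling, 8 with quantile scaling, 2 after background subtraction, 13 with a pseudocount 10 times lower, 13 with only the 2 groups compared, 7 with MUT replicate 2 alone and 13 with REG replicate 3 alone, and from 13 to 20 without single libraries. The gene lower there was lost (0) with only the 2 groups compared and with REG replicate 3 alone, and the count was 0 to 1 without single libraries. In REG vs WT, 0 to 1 genes were higher without single libraries and 0 lower. Shares of all genes called are given above only as reported, with total scaling and after background subtraction. The calls over all genes can move with the other settings too. At an unadjusted limma p under 0.05, MUT vs WT had 46.1% of all genes as reported, 48.0% with trimmed-mean and 33.3% with quantile scaling. In REG vs MUT these shares were 46.9%, 48.9% and 29.7%.

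The median log2 change in MUT vs WT was -1.11 as reported, -0.61 with trimmed-mean, 0.088 with total and -0.45 with quantile scaling, -0.18 after background subtraction, -0.71 with a pseudocount 10 times higher, and -1.26 to -0.89 without single libraries. In REG vs MUT it was 1.12, 0.70, 1.11, 1.15 and 0.99 in the same order, and 1.25 to 1.65 without single libraries. In REG vs WT it was 0.48 with trimmed-mean and 0.71 with total scaling, 0.71 after background subtraction, 0.27 with the higher pseudocount, and 0.23 to 0.45 without single libraries. Relative to all genes, the median ranged in these scalings from -1.21 to -0.42 in MUT vs WT and from 1.10 to 1.82 in REG vs MUT, and with a filter 10 times stricter it was -0.14 and 0.99. The Tnfsf11 to Tnfrsf11b balance was -2.74 in MUT vs WT and 2.30 in REG vs MUT after background subtraction, -0.73 and 0.41 with the higher pseudocount, and -1.21 in REG vs WT with REG replicate 3 alone. Without single libraries it ranged from -2.29 to -1.47 in MUT vs WT, from 0.90 to 1.85 in REG vs MUT and from -0.85 to -0.05 in REG vs WT, and the exact permutation p over 3 groups from 0.05 to 0.211.

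With total scaling the sign of 15 of the 34 genes turned in MUT vs WT, 8 in REG vs MUT and 6 in REG vs WT, and after background subtraction 11, 7 and 6. Of the genes called as reported, those that turned in these 2 settings were Atp6v1c1 at 0.077 and Slc9b2 at 0.10 with total scaling and Atp6v1c1 at 0.0048 after background subtraction, all in MUT vs WT. Tnfrsf11a, not called as reported, was called at 1.18 with total scaling. The replicate block gave 12 genes lower in MUT vs WT, 18 higher in REG vs MUT, and an exact permutation p of 0.111 for the balance. Deviations from the group mean correlated between -0.196 and 0.101 in same-numbered libraries. With 3 libraries per group these correlations cannot decide whether the numbers pair the libraries. The cause of these differences between settings was not tested. Depth and background in MUT limit what can be said of genes with few reads there.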
